A study of Rattus norvegicus with 27 samples.

Results

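The laminin and integrin genes of cultured rat Schwann cells, the glia that ensheathe peripheral axons, are described here across 3 culture stages. They were taken as every row of the deposited cell mRNA table named as a laminin alpha, beta or gamma chain or as an integrin alpha or beta chain. This gave 28 of 17315 genes, namely 8 laminin chains, 12 integrin alpha chains and 8 integrin beta chains. Chains outside these 28 were not analysed here. The rule uses gene names and no measured value.

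Undifferentiated cells were kept without dibutyryl cyclic AMP (dbcAMP), a cell-permeable form of the second messenger cyclic AMP that is used to start myelin gene expression in culture. Differentiated cells had 1 mM dbcAMP for 72 h in DMEM with 1% serum. Dedifferentiated cells had the same treatment and then 72 h without dbcAMP in a complete medium with 10% serum, forskolin, which activates adenylyl cyclase, and neuregulin 1, a Schwann cell growth factor. Each stage had 3 libraries. All groups were primary rat Schwann cells from 1 commercial source, used at passages 3 to 5 on plates treated with a coating solution and without neurons. The labels do not give the last medium of the undifferentiated cells, so dbcAMP, serum, growth factors and time in culture cannot be told apart between stages. The sample titles call the replicates biological, but nothing in the labels says that they came from separate animals, so p-values measure the spread between these libraries.

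Laminins are secreted trimers of 1 alpha, 1 beta and 1 gamma chain that polymerise into the basal lamina, the sheet of matrix that a Schwann cell lays on its outer surface. Integrins are membrane receptors made of 1 alpha and 1 beta chain, and the pair sets the ligand: some pairs bind laminin, others collagen, fibronectin, vitronectin or cell surface proteins. In nerve, Schwann cells need a laminin-bearing basal lamina to sort axons and to myelinate them, and the set of laminin receptors they carry changes as they mature.

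Libraries held 10058735 to 16212278 estimated counts, and 3 counts correspond to 0.185 to 0.298 CPM (counts per 1000000, the count scaled to the column total). Log2 expression correlated at 0.975 to 0.992 within stages and at 0.831 to 0.942 between them. Of 9 measured Schwann cell markers none was at 0 in all libraries, and their summed level was 8455 to 9487 CPM in undifferentiated, 8495 to 11121 in differentiated and 18871 to 21574 in dedifferentiated cells. The 10 leukocyte markers summed to 3.95 to 8.56, 6.48 to 7.15 and 4.67 to 8.14 CPM at the 3 stages, with *Aif1* and *Cx3cr1* at 0. Single leukocyte markers moved in opposite directions, as given below with *Itgad*. In such bulk samples, fewer cells of a type and less RNA per cell cannot be told apart.

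Of the 28 genes, 18 passed the filter on low counts and were tested. A gene was called where edgeR's quasi-likelihood test gave a p, adjusted by Benjamini-Hochberg over all 10372 tested genes, under 0.05. By this rule 14 members were called in at least 1 comparison of stages. The same share over all tested genes was not computed here. It is at least the 59.6% called between differentiated and undifferentiated cells. Between differentiated and undifferentiated cells 12 of 18 members were called, 6 higher and 6 lower, where 59.6% of all tested genes were called (31.7% higher and 27.9% lower). Between dedifferentiated and differentiated cells 10 were called, 5 in each direction, where 46.4% of all genes were called (23.2% in each direction). Between dedifferentiated and undifferentiated cells 9 were called, 4 higher and 5 lower, where 29.4% of all genes were called (16.1% higher and 13.3% lower). The median log2 change of the 18 genes in these comparisons was 0.14, 0.06 and 0.08, beside 0.05, -0.01 and 0.02 over all tested genes. The members' share called lay near that of all genes in both comparisons with differentiated cells, and its difference from all genes between dedifferentiated and undifferentiated cells was not tested. Laminin, alpha and beta chains each held members that rose and members that fell on differentiation. The comparisons share libraries and are therefore not independent of each other.

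Among the laminin chains, *Lamc1* and *Lama4* rose under dbcAMP and fell after its withdrawal, *Lamb2* fell under dbcAMP, and *Lama5* was lower after withdrawal than at both other stages. *Lamc1*, the gamma chain found in most laminin trimers, measured 1151, 1349.6 and 1495 CPM in the undifferentiated libraries of replicates 1, 2 and 3, 2751, 2999 and 3746 CPM in the differentiated and 1739, 1652 and 1692 CPM in the dedifferentiated libraries. All 3 differentiated libraries lay above the other 6. The log2 change was 1.19, SE 0.12, edgeR adjusted p = 1.26e-05 on differentiation and -0.89, SE 0.12, edgeR adjusted p = 0.000196 on withdrawal. Dedifferentiated libraries all lay above undifferentiated ones, with a difference that was not called (log2 change 0.30, SE 0.12, edgeR adjusted p = 0.0871).

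*Lama4*, an alpha chain of the laminins of Schwann cells, blood vessels and muscle, measured 852, 979 and 1105 CPM in the undifferentiated libraries of replicates 1, 2 and 3, 1659.9, 1929 and 2274 CPM in the differentiated and 894, 1167 and 1202 CPM in the dedifferentiated libraries. It followed *Lamc1*, with differentiated libraries above all others and with overlap between the other 2 stages. Its log2 change was 0.94, SE 0.14, edgeR adjusted p = 0.000204 on differentiation and -0.83, SE 0.14, edgeR adjusted p = 0.000787 on withdrawal, and 0.11, SE 0.14, edgeR adjusted p = 0.616 between dedifferentiated and undifferentiated cells. Of 10 endothelial markers *Cdh5*, *Cldn5* and *Erg* were at 0, and the sum of the 10 was 1.21 to 3.36, 6.78 to 9.11 and 12.5 to 22.6 CPM at the 3 stages. In differentiated and dedifferentiated libraries it came mostly from *Tek* and *Vwf*, the 2 that were tested. *Tek* rose on differentiation (log2 change 2.37, edgeR adjusted p = 0.000851) and was not called on withdrawal. *Vwf* was at 0 in undifferentiated libraries and at 0.802 to 1.11 CPM in differentiated ones. It passed the filter only through the stages where it is higher, so this difference is given as a description. *Vwf* rose on withdrawal (log2 change 3.47, edgeR adjusted p = 0.000101). Of 10 smooth muscle and pericyte markers *Kcnj8* and *Rgs5* were at 0, and their sum, mostly *Pdgfrb*, was 176 to 214, 615 to 874 and 356 to 407 CPM. On differentiation *Pdgfrb* rose (log2 change 2.25, edgeR adjusted p = 2.06e-07), and *Tagln* and *Myh11* were not called. *Acta2* measured 2.49 to 3.94 CPM in undifferentiated and 0 to 0.442 CPM in differentiated libraries. This fall is given as a description, because *Acta2* passed the filter only through the other stages. The part of such cells in the change of *Lama4* was not tested.

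To show the sequence upstream of the 2 laminin genes that rose together, the 250 bases before the RefSeq gene start (assembly GRCr8) are printed here 5′ to 3′ on the strand of the gene, with *Itga1* and *Itgb5*, which moved otherwise, beside them. Capitals mark a match to CATTCC, the core of the element bound by TEAD factors, on either strand.
Lamc1, chr13:68051987-68052236, minus strand: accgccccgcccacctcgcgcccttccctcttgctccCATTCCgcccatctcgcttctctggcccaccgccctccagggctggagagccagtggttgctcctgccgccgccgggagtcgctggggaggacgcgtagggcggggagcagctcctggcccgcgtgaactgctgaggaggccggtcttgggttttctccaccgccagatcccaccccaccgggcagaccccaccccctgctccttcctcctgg
Lama4, chr20:43946648-43946897, plus strand: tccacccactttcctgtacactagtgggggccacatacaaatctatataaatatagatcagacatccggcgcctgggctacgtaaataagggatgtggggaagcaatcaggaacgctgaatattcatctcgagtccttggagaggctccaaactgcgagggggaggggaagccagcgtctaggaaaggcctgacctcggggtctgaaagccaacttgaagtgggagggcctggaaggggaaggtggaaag
Itga1, chr2:48545284-48545533, minus strand: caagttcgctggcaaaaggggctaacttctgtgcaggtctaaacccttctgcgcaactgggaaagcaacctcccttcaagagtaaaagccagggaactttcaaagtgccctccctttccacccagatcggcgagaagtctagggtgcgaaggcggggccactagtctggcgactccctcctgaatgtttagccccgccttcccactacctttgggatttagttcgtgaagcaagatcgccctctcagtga
Itgb5, chr11:80449374-80449623, minus strand: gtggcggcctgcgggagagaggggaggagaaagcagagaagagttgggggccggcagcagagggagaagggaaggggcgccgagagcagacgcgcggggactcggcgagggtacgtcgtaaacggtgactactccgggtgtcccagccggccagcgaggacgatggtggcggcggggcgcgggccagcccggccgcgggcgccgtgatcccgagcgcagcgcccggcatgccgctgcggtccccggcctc
The build of the deposited counts is not given in the sources used here, so these windows place the RefSeq genes and not the authors' gene models. Of the 28 members 19 had a window in the RefSeq table. CATTCC occurred in 4 of them (*Itga10*, *Itgb1*, *Itgb8* and *Lamc1*), beside 12.1% of 33469 windows of the same length. The full cyclic AMP response element TGACGTCA, the site of the factors that cyclic AMP activates, occurred in 1 (*Lamb3*, which had no counts), beside 1.59% of all windows. The AP-1 element TGANTCA occurred in none of the 19, beside 6.34% of all windows. Both strands were searched for each, and no 2 of these motifs share a match in the 19 windows. The guanine and cytosine share of the 4 printed windows was 71.2% for *Lamc1*, 53.2% for *Lama4*, 54.4% for *Itga1* and 74.4% for *Itgb5*.

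*Lamb2*, a beta chain that joins *Lamc1* in trimers of the mature basal lamina, moved against *Lamc1* and *Lama4*. It measured 1193, 950.0 and 948 CPM in the undifferentiated libraries of replicates 1, 2 and 3, 374, 493 and 494 CPM in the differentiated and 663, 574 and 535 CPM in the dedifferentiated libraries. The 3 stages did not overlap, with undifferentiated libraries highest and differentiated libraries lowest. The log2 change was -1.25, SE 0.14, edgeR adjusted p = 2.9e-05 on differentiation and -0.85, SE 0.14, edgeR adjusted p = 0.00132 between dedifferentiated and undifferentiated cells. The rise on withdrawal was small (log2 change 0.40, SE 0.14, edgeR adjusted p = 0.0426) and was lost with the sequencing project as a factor, within 1 project, and in 5 fits that left out a library: each of the 3 differentiated libraries and dedifferentiated replicates 1 and 2 (adjusted p from 0.0191 to 0.143 over the 9 fits that left out a library).

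*Lama5*, an alpha chain of many adult basal laminae, measured 190.0, 173 and 158 CPM in the undifferentiated libraries of replicates 1, 2 and 3, 201, 215 and 231 CPM in the differentiated and 159.6, 99.1 and 104 CPM in the dedifferentiated libraries. Differentiated libraries lay above undifferentiated ones, a difference that was not called (log2 change 0.25, SE 0.17, edgeR adjusted p = 0.221). The level fell on withdrawal (log2 change -0.82, SE 0.17, edgeR adjusted p = 0.00253), and dedifferentiated cells were lower than undifferentiated cells (log2 change -0.57, SE 0.17, edgeR adjusted p = 0.0266), although their libraries overlapped. That last call was lost without undifferentiated replicate 1, dedifferentiated replicate 2 or dedifferentiated replicate 3 (log2 changes of -0.48, -0.48 and -0.46). The other 4 laminin chains were not tested. *Lama1* and *Lamb3* had no counts in any library, and *Lamc3* had 0 to 2 counts per library.

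**Figure D1:**
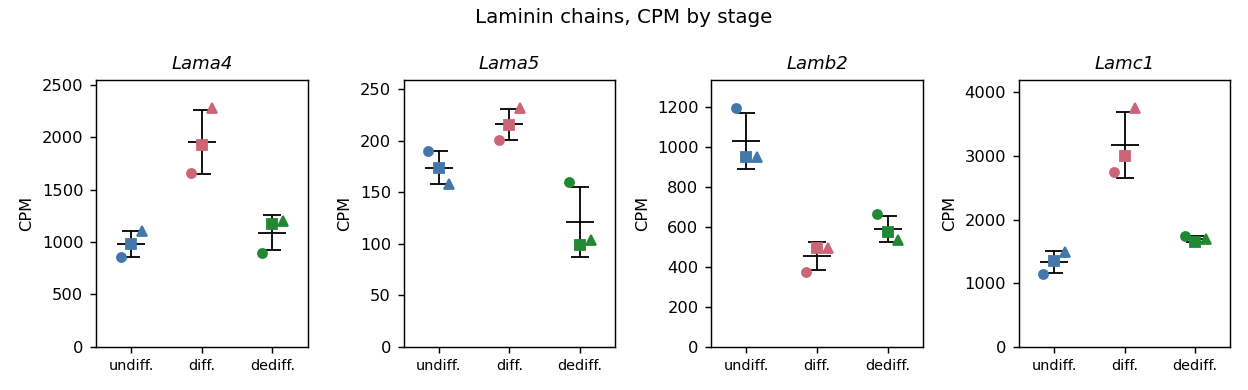
CPM of the 4 tested laminin chains in each library, by stage; circles, squares and triangles are replicates 1, 2 and 3, and bars are the mean and SD of 3 libraries. Differentiated libraries are highest for Lamc1 (2751 to 3746 CPM) and Lama4 (1660 to 2274 CPM) and lowest for Lamb2 (374 to 494 CPM).

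*Itga6* and *Itga7* pair into receptors whose main ligand is laminin. *Itga6*, which joins *Itgb1* or *Itgb4*, measured 906, 864 and 885 CPM in the undifferentiated libraries of replicates 1, 2 and 3, 1438, 1159 and 1279 CPM in the differentiated and 1362, 1119.6 and 1169.6 CPM in the dedifferentiated libraries. Undifferentiated libraries lay within a narrow range below all others. The level rose on differentiation (log2 change 0.49, SE 0.11, edgeR adjusted p = 0.00351), and dedifferentiated cells stayed above undifferentiated cells (log2 change 0.41, SE 0.11, edgeR adjusted p = 0.0195), while the change on withdrawal did not pass the threshold (log2 change -0.07, SE 0.11, edgeR adjusted p = 0.608). The call against undifferentiated cells was lost without undifferentiated replicate 2, undifferentiated replicate 3 or dedifferentiated replicate 1 (log2 changes of 0.37, 0.39 and 0.30).

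*Itga7*, a laminin-binding alpha chain best known from muscle, measured 686, 730.4 and 750.3 CPM in the undifferentiated libraries of replicates 1, 2 and 3, 817, 695 and 809.5 CPM in the differentiated and 905, 787 and 755 CPM in the dedifferentiated libraries. It was not called in any comparison: the log2 changes were 0.04, SE 0.10, edgeR adjusted p = 0.751, 0.09, SE 0.10, edgeR adjusted p = 0.495 and 0.13, SE 0.10, edgeR adjusted p = 0.377. Its dedifferentiated libraries did lie above the undifferentiated ones.

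Other alpha chains pair into receptors for collagen, fibronectin and further ligands. *Itga1*, which pairs with *Itgb1* into a receptor for collagen and laminin, measured 92.1, 162 and 194 CPM in the undifferentiated libraries of replicates 1, 2 and 3, 27.8, 32.5 and 35.1 CPM in the differentiated and 148, 117 and 126 CPM in the dedifferentiated libraries. Differentiated libraries lay below all others, and the other 2 stages overlapped. The level fell by 2.28 on the log2 scale on differentiation (SE 0.22; edgeR adjusted p = 7.6e-06) and rose on withdrawal (log2 change 2.05, SE 0.22, edgeR adjusted p = 3.51e-05). Dedifferentiated and undifferentiated cells differed by -0.23, SE 0.21, edgeR adjusted p = 0.433. Undifferentiated replicate 1 was the lowest of its stage, and without it dedifferentiated cells were called lower (log2 change -0.47; edgeR adjusted p = 0.0171, in a range of 0.0171 to 0.945 over the 9 fits that left out a library).

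*Itga4*, whose receptor binds fibronectin and the adhesion molecule VCAM1, measured 22.5, 16.2 and 25.1 CPM in the undifferentiated libraries of replicates 1, 2 and 3, 59.6, 49.2 and 72.5 CPM in the differentiated and 31.7, 32.1 and 33.5 CPM in the dedifferentiated libraries. The 3 stages did not overlap. It rose on differentiation (log2 change 1.44, SE 0.17, edgeR adjusted p = 2.85e-05) and fell on withdrawal (log2 change -0.89, SE 0.16, edgeR adjusted p = 0.00131) to a level above undifferentiated cells (log2 change 0.55, SE 0.17, edgeR adjusted p = 0.0305). This last call was lost without undifferentiated replicate 2 (log2 change 0.38) and without any 1 of the dedifferentiated libraries (0.53 to 0.55).

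*Itga5*, the alpha chain of the main fibronectin receptor, measured 54.8, 54.4 and 55.0 CPM in the undifferentiated libraries of replicates 1, 2 and 3, 26.2, 30.6 and 33.7 CPM in the differentiated and 27.2, 32.8 and 34.7 CPM in the dedifferentiated libraries. Undifferentiated libraries lay close together and above the other 6, which overlapped. The level fell on differentiation (log2 change -0.92, SE 0.11, edgeR adjusted p = 4.06e-05), did not pass the threshold on withdrawal (log2 change 0.08, SE 0.11, edgeR adjusted p = 0.594), and was lower in dedifferentiated than in undifferentiated cells (log2 change -0.84, SE 0.11, edgeR adjusted p = 0.000286). *Itga8*, an alpha chain for matrix proteins with the RGD motif, ranged from 3.79 to 22.7 CPM over the 9 libraries and was not called. Without undifferentiated replicate 3 it was called higher in differentiated than in undifferentiated cells (log2 change 1.15; edgeR adjusted p = 0.0406, in a range of 0.0406 to 0.296 over those 9 fits).

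Other alpha chains were present at low counts. *Itga11*, a receptor chain for fibrillar collagen known from fibroblasts, had 65, 45 and 49 counts in undifferentiated, 4, 0 and 3 in differentiated and 23, 8 and 11 in dedifferentiated libraries. Differentiated libraries were the lowest and undifferentiated ones the highest, without overlap. The differentiated mean of 0.160 CPM lay under the floor of 3 counts (0.213 CPM), so the sizes of changes against that stage are uncertain. *Itga11* fell on differentiation (log2 change -4.69, SE 0.63, edgeR adjusted p = 9.08e-05), rose on withdrawal (log2 change 2.81, SE 0.70, edgeR adjusted p = 0.00761) and stayed below undifferentiated cells (log2 change -1.87, SE 0.49, edgeR adjusted p = 0.0157). The last call was lost without dedifferentiated replicate 2 or 3 (log2 changes of -1.70 and -1.64). The summed level of 10 fibroblast markers was 24581 to 29379, 12620 to 16731 and 16663 to 20356 CPM at the 3 stages. It came mostly from *Col1a1* and *Col1a2*, while *Lum* was at 0 and *Dcn* and *Pdgfra* stayed under 1 CPM. Of the 10 markers 6 were tested, and on differentiation *Col1a1* and *Col1a2* fell while 2 others rose: *Col14a1* from 199 to 904 CPM on average (log2 change 2.12, edgeR adjusted p = 1.65e-05) and *Col3a1* from 53.2 to 92.0 CPM (log2 change 0.72, edgeR adjusted p = 0.0425). Their part in the change of *Itga11* was not tested.

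*Itgad*, a leukocyte alpha chain, had 29, 23 and 44 counts in undifferentiated, none in differentiated and 9, 8 and 7 in dedifferentiated libraries. Against the floor of 3 counts per library it was at least 11.6-fold lower in differentiated than in undifferentiated cells and at least 3.27-fold higher in dedifferentiated than in differentiated cells. Dedifferentiated libraries lay below undifferentiated ones. *Itgad* passed the filter through undifferentiated libraries alone, where it is highest. *Itga11* is also highest there, though its dedifferentiated libraries reach the filter as well. The calls of both against the undifferentiated stage are given as a description. *Itgad* is among the calls counted in all 3 comparisons, and with a minimum count of 30, which leaves it out, the counts were 11, 9 and 8. RefSeq lists the symbol *Itgax*, another leukocyte integrin, as an older name of *Itgad*, so which of these neighbouring genes the row counts is uncertain. Of 10 leukocyte markers 3 were tested. On differentiation *Cd68* rose (log2 change 2.13, edgeR adjusted p = 0.00387) and *Laptm5* fell (log2 change -1.33, edgeR adjusted p = 0.00752). *Csf1r* was at 0 in undifferentiated and at 0.295 to 0.987 CPM in differentiated libraries. Their part in the change of *Itgad* was not tested. *Itgae*, which binds E-cadherin, ranged from 3.61 to 7.02 CPM and was not called, although its differentiated libraries lay above the undifferentiated ones. *Itgal*, *Itgam* and *Itga10* had at most 4 counts in any library and were not tested.

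**Figure D2:**
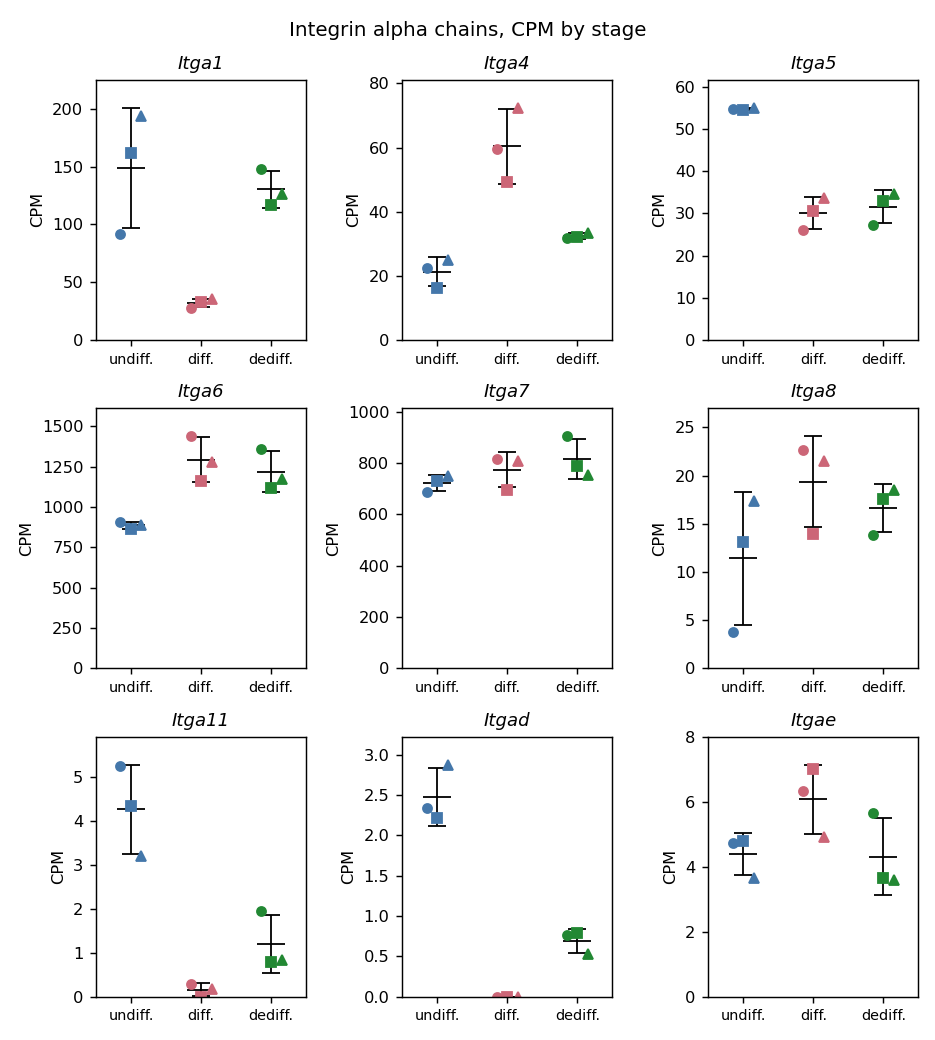
CPM of the 9 tested integrin alpha chains in each library, by stage, with the mean and SD of 3 libraries; circles, squares and triangles are replicates 1, 2 and 3, and each axis starts at 0. Differentiated libraries are lowest for Itga1 (27.8 to 35.1 CPM) and highest for Itga4 (49.2 to 72.5 CPM), and Itga5 is highest in undifferentiated libraries (54.4 to 55.0 CPM).

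Among the beta chains, *Itgb4* and *Itgb3* rose under dbcAMP, *Itgb1* fell slightly, and *Itgb5* was higher after withdrawal alone. *Itgb1*, the partner of most alpha chains named above, measured 1437, 1439 and 1450.0 CPM in the undifferentiated libraries of replicates 1, 2 and 3, 1101, 1042 and 1214 CPM in the differentiated and 1206, 1302 and 1357 CPM in the dedifferentiated libraries. Undifferentiated libraries lay together above all others. The fall on differentiation was small (log2 change -0.43, SE 0.09, edgeR adjusted p = 0.00155), and neither the change on withdrawal (log2 change 0.22, SE 0.09, edgeR adjusted p = 0.0634) nor the difference between dedifferentiated and undifferentiated cells (log2 change -0.21, SE 0.09, edgeR adjusted p = 0.0919) passed the threshold. DESeq2's Wald test called both (adjusted p = 0.0192 and 0.0108, in ranges of 0.0192 to 0.217 and 0.0108 to 0.247 over the alternatives), and the change on withdrawal was also called without dedifferentiated replicate 1 (log2 change 0.27).

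*Itgb4*, which joins *Itga6* into a laminin receptor of myelinating Schwann cells and of epithelia, measured 96.1, 151 and 136 CPM in the undifferentiated libraries of replicates 1, 2 and 3, 180.3, 300.4 and 262 CPM in the differentiated and 312, 251 and 239 CPM in the dedifferentiated libraries. Undifferentiated libraries lay below all others, and the other 2 stages overlapped. It rose on differentiation (log2 change 0.89, SE 0.20, edgeR adjusted p = 0.00253), was not called on withdrawal (log2 change 0.13, SE 0.19, edgeR adjusted p = 0.605) and stayed higher than in undifferentiated cells (log2 change 1.02, SE 0.20, edgeR adjusted p = 0.00297). *Itgb4* is also expressed by perineurial cells. Of 6 other measured perineurial markers *Krt19* and *Lypd2* were at 0, and the summed level of the 6 was 230.0 to 273 CPM in undifferentiated, 414 to 440.1 in differentiated and 433 to 551 in dedifferentiated libraries. Most of it was *Tjp1*, which many cell types express, and the part of such cells in the change of *Itgb4* was not tested.

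*Itgb3*, a chain of receptors for vitronectin, osteopontin and fibronectin, measured 5.80, 14.0 and 15.4 CPM in the undifferentiated libraries of replicates 1, 2 and 3, 36.0, 43.7 and 48.1 CPM in the differentiated and 16.3, 21.0 and 16.1 CPM in the dedifferentiated libraries. The 3 stages did not overlap. It rose on differentiation (log2 change 1.80, SE 0.27, edgeR adjusted p = 0.000208) and fell on withdrawal (log2 change -1.25, SE 0.27, edgeR adjusted p = 0.00315), and dedifferentiated cells were not called against undifferentiated ones (log2 change 0.55, SE 0.28, edgeR adjusted p = 0.162). Undifferentiated replicate 1 was the lowest library.

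*Itgb5*, a chain of another vitronectin receptor, showed a different course and measured 102, 131 and 133 CPM in the undifferentiated libraries of replicates 1, 2 and 3, 134, 120.0 and 132 CPM in the differentiated and 315, 270.1 and 264 CPM in the dedifferentiated libraries. All dedifferentiated libraries lay at or above 264 CPM, and all others at or below 134 CPM. It rose on withdrawal (log2 change 1.15, SE 0.11, edgeR adjusted p = 1.51e-05) and was higher than in undifferentiated cells (log2 change 1.17, SE 0.11, edgeR adjusted p = 2.52e-05), while differentiated and undifferentiated libraries overlapped (log2 change 0.02, SE 0.11, edgeR adjusted p = 0.892). *Itgb8*, whose receptor activates latent TGF-beta, ranged from 190 to 395 CPM, overlapped between all stages and was not called, with standard errors of 0.24 in each comparison. *Itgb2*, *Itgb6* and *Itgb7* were not tested: *Itgb6*, an epithelial chain, had no counts, and the leukocyte chains *Itgb2* and *Itgb7* had at most 1 count in any library. A count of 0 allows a level of up to 0.185 to 0.298 CPM, depending on the library.

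**Figure D3:**
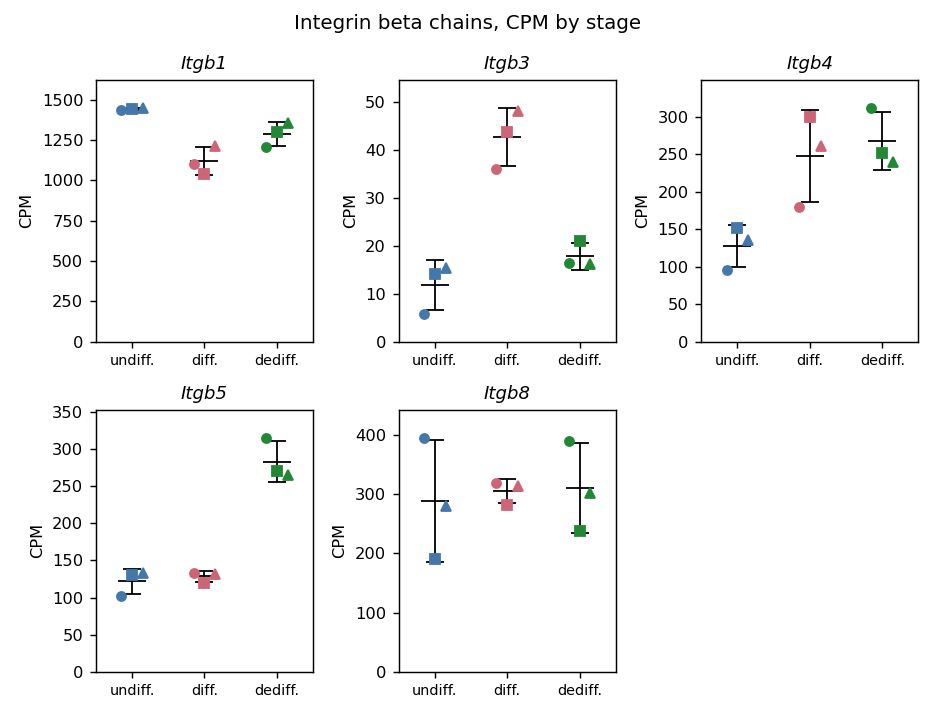
CPM of the 5 tested integrin beta chains in each library, by stage, with the mean and SD of 3 libraries; circles, squares and triangles are replicates 1, 2 and 3, and each axis starts at 0. Itgb3 is highest in differentiated libraries (36.0 to 48.1 CPM), Itgb5 in dedifferentiated ones (264 to 315 CPM), and Itgb4 is lowest in undifferentiated ones (96.1 to 151 CPM).

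By the calls, the 18 tested genes fell into several courses. *Lamc1*, *Lama4* and *Itgb3* were called higher on differentiation and lower on withdrawal, with no call against undifferentiated cells. *Itga4* did the same but stayed called above undifferentiated cells. *Itga6* and *Itgb4* were called higher in both stages that had seen dbcAMP. *Itga1*, *Itga11*, *Itgad* and *Lamb2* were called lower on differentiation and higher on withdrawal, the last 3 of them still called below undifferentiated cells. *Itga5* was called lower in both later stages, *Itgb1* only on differentiation, *Itgb5* higher and *Lama5* lower only after withdrawal, and *Itga7*, *Itga8*, *Itgae* and *Itgb8* in no comparison. Differentiated and undifferentiated libraries did not overlap for 14 members, 8 higher and 6 lower, beside 66.3% of all tested genes (38.9% higher and 27.4% lower). Dedifferentiated and differentiated libraries did not overlap for 10 members, 5 in each direction, beside 58.5% (28.3% higher and 30.2% lower). Dedifferentiated and undifferentiated libraries did not overlap for 12 members, 7 higher and 5 lower, beside 43.9% (26.8% higher and 17.1% lower).

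**Figure D4:**
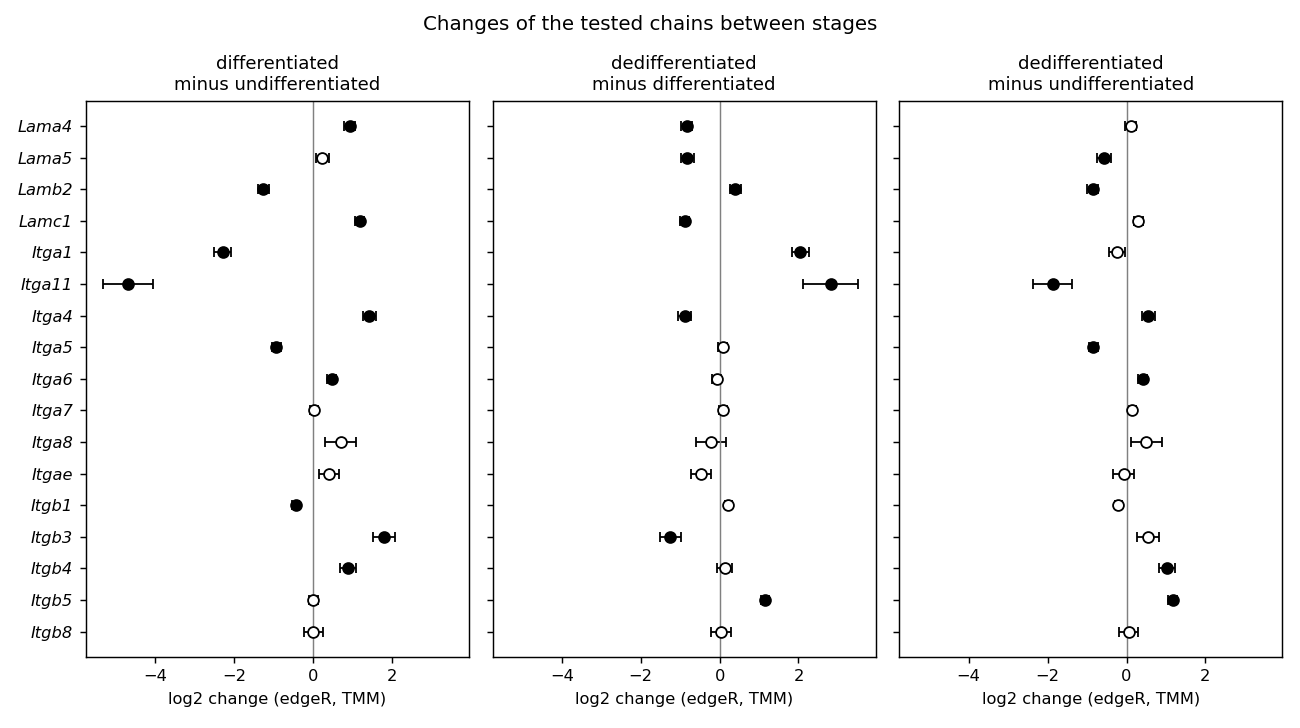
Log2 changes of 17 tested chains in the 3 comparisons of stages, with standard errors as bars; filled points have an edgeR adjusted p under 0.05. Itgad is left out because it had no counts in differentiated libraries. Itga1 (-2.28) and Itga11 (-4.69) lie farthest left in the first panel, and Itgb3 (1.80) farthest right. The differentiated mean of Itga11 lay under the floor of 3 counts, so the sizes of its changes against that stage are uncertain.

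The sequencing project in the labels separates replicate 3 from replicates 1 and 2. Within the project of replicates 1 and 2, with 6 libraries, 11, 6 and 4 members were called in the 3 comparisons, all of them among the 12, 10 and 9 called with all libraries. Calls lost there were *Itga6* on differentiation (0.0572), *Itga11*, *Itgb3*, *Lama5* and *Lamb2* on withdrawal (0.0504, 0.0594, 0.0576 and 0.0784), and *Itga4*, *Itga6*, *Itga11*, *Itgad* and *Lama5* against undifferentiated cells (0.0801, 0.156, 0.127, 0.124 and 0.145), given as edgeR adjusted p. Each kept the sign of its log2 change. On differentiation, where 11 of 12 calls were kept, this fit of 6 libraries also called fewer of all genes than the fit of all libraries. Most of the lost calls were in the other comparisons, where 6 of 10 and 4 of 9 were kept. Calls over all genes are not given here for those, so whether these losses were particular to the members was not tested. The other project held 1 library per stage and allows no such fit.

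Ratios between 2 chains within a library do not depend on library scaling, and were described without a test as log2 ratios of estimated counts. The ratio of *Itgb4* to *Itgb1*, alternative partners of *Itga6*, was -3.90, -3.25 and -3.41 in undifferentiated, -2.61, -1.79 and -2.21 in differentiated and -1.95, -2.37 and -2.50 in dedifferentiated libraries. Undifferentiated libraries were lowest, and the other stages overlapped. The ratio of *Itga7* to *Itga6* was -0.29 ± 0.09, -0.74 ± 0.08 and -0.58 ± 0.06 at the 3 stages (SD, n = 3), with no overlap between them. The ratio of *Itga6* to *Itga5* was 4.01 ± 0.03, 5.42 ± 0.31 and 5.27 ± 0.32, lowest in undifferentiated libraries. Toward collagen and fibronectin receptors, the ratio of *Itga1* to *Itga5* was 1.38 ± 0.56, 0.08 ± 0.02 and 2.05 ± 0.34, with differentiated libraries lowest and dedifferentiated ones highest. For the vitronectin receptor chains, the ratio of *Itgb5* to *Itgb3* was 3.48 ± 0.56, 1.60 ± 0.25 and 4.00 ± 0.29, lowest in differentiated libraries. The ratio of *Itgb8* to *Itgb1* overlapped between all stages.

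**Figure D5:**
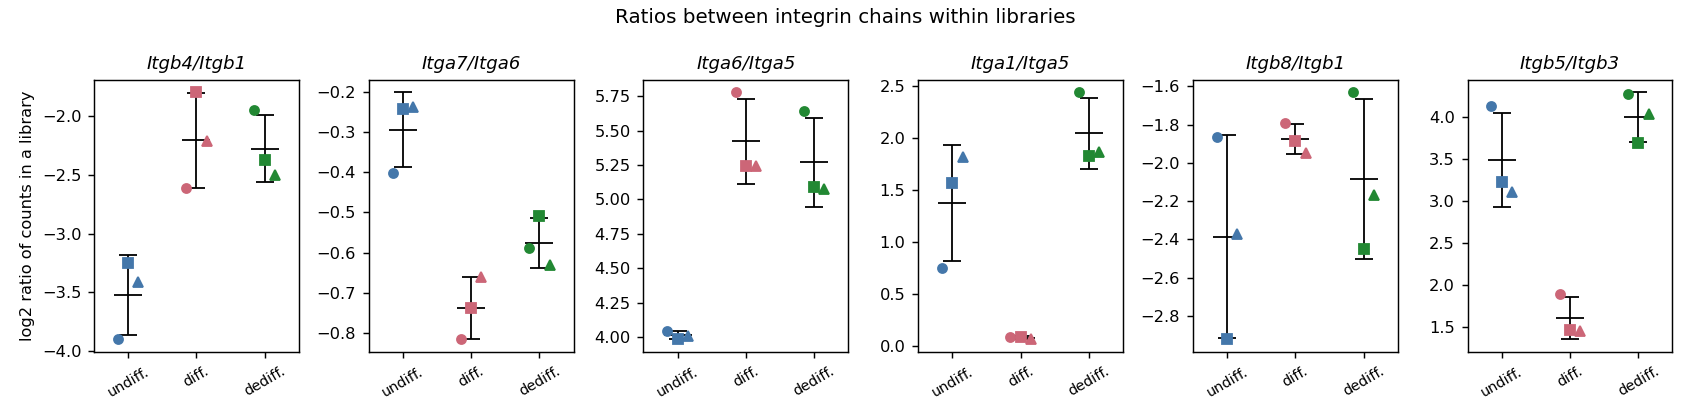
Log2 ratios of the estimated counts of 2 integrin chains within each library, by stage, with the mean and SD of 3 libraries; circles, squares and triangles are replicates 1, 2 and 3, and the axes do not start at 0. Undifferentiated libraries are lowest for Itgb4/Itgb1 (mean -3.52) and Itga6/Itga5 (4.01), and differentiated libraries for Itgb5/Itgb3 (1.60).

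Other proteins of the basal lamina, nidogens, collagens and proteoglycans among them, were listed by role. Of 9 measured genes 7 were tested, 1 of which was called higher and 1 lower on differentiation, 2 and 3 on withdrawal, and 2 and 3 against undifferentiated cells. Over all tested genes the shares called higher and lower were 31.7% and 27.9%, 23.2% and 23.2%, and 16.1% and 13.3%. The median log2 changes were -0.06, -0.66 and -0.44, beside 0.05, -0.01 and 0.02 over all tested genes. Neither this list nor those below were tested as sets against these values. Levels of the genes in these lists are means ± SD of 3 libraries at the undifferentiated, differentiated and dedifferentiated stage in turn. *Nid2*, a nidogen that bridges laminin and collagen networks, measured 371 ± 41.2, 1362 ± 187 and 698 ± 103 CPM and rose on differentiation (log2 change 1.82, edgeR adjusted p = 2.26e-06). *Agrn*, the proteoglycan agrin, which binds laminin and dystroglycan, measured 2052 ± 319.9, 224 ± 18.6 and 1201 ± 51.2 CPM and fell (log2 change -3.26, edgeR adjusted p = 8.28e-09) before it rose on withdrawal (log2 change 2.44, edgeR adjusted p = 1.47e-07). *Col4a1*, a chain of the network-forming collagen, was called lower on withdrawal (log2 change -0.66, edgeR adjusted p = 0.0039), as was *Col18a1* (log2 change -0.79, edgeR adjusted p = 5.5e-05), a basement membrane collagen. *Col15a1*, another collagen of basement membrane zones, rose on withdrawal (log2 change 1.41, edgeR adjusted p = 2.65e-05).

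Laminin also binds dystroglycan, which is held at the membrane by sarcoglycans and linked inside by dystrophin, utrophin, syntrophins and, in myelinating Schwann cells, DRP2 and periaxin. Of 18 measured genes of this group and other non-integrin laminin receptors, 16 were tested. On differentiation 6 were called higher and 6 lower, on withdrawal 10 and 3, and against undifferentiated cells 8 and 2. Over all tested genes the shares called higher and lower were 31.7% and 27.9%, 23.2% and 23.2%, and 16.1% and 13.3%. The median log2 changes were 0.17, 0.62 and 0.39, beside 0.05, -0.01 and 0.02 over all tested genes. *Dag1*, which encodes dystroglycan, measured 1601 ± 158, 3239.8 ± 400.3 and 2408 ± 243 CPM and rose on differentiation (log2 change 0.95, edgeR adjusted p = 0.00012). *Prx*, periaxin, measured 24.6 ± 6.50, 3769 ± 757 and 2533 ± 809.9 CPM (log2 change 7.20, edgeR adjusted p = 2.55e-08 on differentiation), and *Dmd*, dystrophin, 13.2 to 15.4, 159.7 to 189.6 and 71.5 to 109 CPM by range (log2 change 3.53, edgeR adjusted p = 4.86e-08). *Drp2* was near 0 in undifferentiated libraries (0.161, 0 and 0 CPM) and measured 23.6 ± 12.3 CPM in differentiated and 90.5 ± 47.1 CPM in dedifferentiated libraries (SD, n = 3). Lower on differentiation were *Sspn*, sarcospan (log2 change -1.97, edgeR adjusted p = 1.31e-07), *Sntb1*, a syntrophin (log2 change -2.50, edgeR adjusted p = 2.45e-07), and *Sgce*, a sarcoglycan (log2 change -0.55, edgeR adjusted p = 0.000191), and all 3 rose on withdrawal (log2 change 1.14, edgeR adjusted p = 1.51e-05, 1.75, edgeR adjusted p = 7.98e-06 and 0.70, edgeR adjusted p = 6.93e-05).

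Inside the cell, talin and kindlin activate integrins, and integrin-linked kinase, PINCH, parvin, paxillin and focal adhesion kinase link them to actin and signalling. Of 21 measured genes 16 were tested, and 2 were called higher and 10 lower on differentiation, 8 and 2 on withdrawal, and 2 and 8 against undifferentiated cells. Over all tested genes the shares called higher and lower were 31.7% and 27.9%, 23.2% and 23.2%, and 16.1% and 13.3%. The median log2 changes were -0.45, 0.22 and -0.28, beside 0.05, -0.01 and 0.02 over all tested genes. *Lims2*, a PINCH protein, measured 94.3 ± 9.75, 2.72 ± 0.645 and 31.4 ± 6.79 CPM and fell on differentiation (log2 change -5.19, edgeR adjusted p = 1.63e-08). *Zyx*, zyxin, measured 667 ± 40.5, 117 ± 12.7 and 262 ± 9.03 CPM (log2 change -2.57, edgeR adjusted p = 9.06e-09 on differentiation), and *Tln1*, talin, 1522 ± 62.9, 614 ± 46.0 and 1308 ± 84.9 CPM (log2 change -1.37, edgeR adjusted p = 3.17e-07). All 3 rose on withdrawal (log2 change 3.56, edgeR adjusted p = 6.08e-07, 1.17, edgeR adjusted p = 4.3e-06 and 1.10, edgeR adjusted p = 4.14e-06) and were still called below undifferentiated cells. *Vcl*, vinculin, and *Parva*, a parvin, rose on differentiation (log2 change 0.83, edgeR adjusted p = 0.000106 and 0.62, edgeR adjusted p = 0.000153).

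The ligands of integrins other than laminin moved in both directions. Of 20 measured genes 16 were tested, and 7 were called higher and 6 lower on differentiation, 2 and 3 on withdrawal, and 2 and 4 against undifferentiated cells. Over all tested genes the shares called higher and lower were 31.7% and 27.9%, 23.2% and 23.2%, and 16.1% and 13.3%. The median log2 changes were 0.46, -0.20 and -0.20, beside 0.05, -0.01 and 0.02 over all tested genes. *Tnc*, tenascin C, measured 4298 ± 552, 95.0 ± 29.6 and 1074 ± 19.5 CPM and fell on differentiation (log2 change -5.56, edgeR adjusted p = 2.75e-08), and it rose on withdrawal (log2 change 3.51, edgeR adjusted p = 9.5e-07). *Postn*, periostin, took the opposite course at 136 ± 26.7, 997 ± 77.9 and 64.2 ± 29.7 CPM (log2 change 2.82, edgeR adjusted p = 1.32e-05 on differentiation and -3.95, edgeR adjusted p = 4.23e-06 on withdrawal). *Cdh1*, E-cadherin, the ligand of *Itgae*, measured 0.161, 0.769 and 0.196 CPM in undifferentiated libraries. It measured 117 ± 12.5 CPM in differentiated and 116 ± 44.2 CPM in dedifferentiated libraries. *Cdh1* passed the filter only through these last stages, so its rise on differentiation is given as a description. It was not called on withdrawal. *Thbs2*, a thrombospondin, rose on differentiation (log2 change 1.00, edgeR adjusted p = 4.15e-05) and fell on withdrawal (log2 change -1.17, edgeR adjusted p = 3e-05). *Fn1*, fibronectin, the ligand of the receptors of *Itga5* and *Itga4*, measured 496 ± 328, 953 ± 289 and 455 ± 77.7 CPM and was not called (log2 change 0.89, edgeR adjusted p = 0.133 on differentiation), and its undifferentiated libraries spread widely; it was named after its values were seen.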

How the data were processed

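Cell mRNA of 9 libraries, 3 for each of 3 stages, was analysed from a table of 17315 genes in estimated counts, which the authors deposited. Salmon is named in the submitters' processing notes, beside STAR, HISAT2 and Trim Galore, and the file's own name calls the values salmon gene counts. The order of these steps, the genome build and the annotation are not given in the sources used here. Of the deposited values 1.15% were not whole, and all were rounded. The libraries came from a directional kit, per the labels. The 27 libraries of the series also hold other assays, not used here. The replicate number in some column names differs from that of the sample title, and columns were assigned by library code to the titled sample.

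CPM are counts scaled to a column total of 1000000. Stages were compared in edgeR 4.0.16 (R 4.3.3) with a quasi-likelihood test on 1 fit of all 9 libraries, TMM scaling, filterByExpr with a minimum count of 10, and Benjamini-Hochberg adjustment over 10372 genes. Standard errors come from the same fit. Values in every library were to be given for members called in at least 1 comparison with a mean of at least 5 CPM. *Itga7*, and *Itga11* and *Itgad* as counts, were added after their values were seen. Related genes were named by the smallest p, up to 3 higher and 3 lower per list and comparison. The members and lists were chosen with earlier results of these data known. Alternatives were other scaling, filters, DESeq2 1.42.0, a replicate block, the sequencing project, a fold threshold and leaving out each library. Replicate numbers were taken to pair libraries where every same-numbered pair of 2 stages correlated over 0.1 in its deviations from the stage means. This held for undifferentiated with differentiated libraries (0.304, 0.234 and 0.269) and not for the other comparisons. The main fit leaves this pairing out, so the standard errors and p-values given on differentiation ignore it. With the replicate number as a block the same 12 members were called on differentiation. Ratios used a pseudocount of 0.5 counts. In 1 simulated comparison of differentiated with undifferentiated cells, with 198 of 10274 genes changed, 84% of 2-fold and 96.9% of 4-fold changes were called, and 4.28% of calls were false. In the data 59.6% of tested genes were called in this comparison, far above the share changed in the simulation. The rates at such a share were not tested. Floors of 3 counts cover counting error only. Values of some single genes are not reported here.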

Additional observations from a re-analysis of the deposited data

How the results depend on the processing

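Counts of members called for differentiated against undifferentiated, dedifferentiated against differentiated, and dedifferentiated against undifferentiated cells were 12, 10 and 9. They were the same under library size alone, DESeq2 size factors, no low-count filter and no rounding. They were 12, 9 and 9 with the sequencing project as a factor, 12, 11 and 10 by DESeq2's Wald test, and 11, 9 and 8 with a minimum count of 30. Requiring an absolute log2 change above 1 left 7, 5 and 4. The share of all tested genes passing that threshold is not given here, so whether members passed it more often was not tested. Within the project of replicates 1 and 2, chosen after seeing the data, 11, 6 and 4 were called. On differentiation the fold threshold and the fit within the project also called fewer of all genes than the main fit. For the other comparisons the calls over all genes under these settings are not given here. Leaving out 1 library at a time gave 12 to 13, 9 to 10 and 6 to 9. With the replicate number as a block the counts were 12, 9 and 10: *Lamb2* on withdrawal was lost (edgeR adjusted p = 0.0518, in a range of 0.0176 to 0.143 over its alternatives) and *Lamc1* in dedifferentiated against undifferentiated cells was called (0.0496, in a range of 0.0496 to 0.224). The block changed no other call, and none on differentiation. In both comparisons with dedifferentiated cells the pair of replicate 2 correlated under 0.1 (0.0823 and 0.028), so these numbers share a hint of pairing (7 of 9 libraries correlated best with their own number) that falls short of the rule used. Of 1023 values of members under alternatives 945 kept their direction and call, 44 lost and 6 gained a call, and 28, none of them called, changed sign. *Itgb5* in differentiated against undifferentiated cells was -0.0138 with DESeq2 size factors, -0.0138 by the Wald test and -0.00847 with no filter. *Itgb8* was -0.0185, -0.0182, -0.0136 and -0.0421 there with size factors, the Wald test, no filter and within the project, and -0.00242 on withdrawal with the block. *Itga1* in dedifferentiated against undifferentiated cells was 0.00918 within the project. Leaving out 1 library gave ranges that crossed 0 on differentiation for *Itga7* (-0.0118 to 0.118), *Itgb5* (-0.0777 to 0.0721) and *Itgb8* (-0.246 to 0.336), on withdrawal for *Itga5* (-0.0046 to 0.184), *Itga6* (-0.155 to 0.0216), *Itgb4* (-0.0456 to 0.287) and *Itgb8* (-0.156 to 0.198), and against undifferentiated cells for *Itgae* (-0.343 to 0.0574) and *Itgb8* (-0.201 to 0.373). The cause of these changes was not tested, except that fewer libraries enter the fits that leave some out. The log2 ratios kept their values without rounding, and ratios with further laminin chains were not analysed here. Depth limits the genes with few counts, *Itga11* and *Itgad* among those called.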

Other observations

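Dystroglycan binds laminin through sugars that a set of enzymes adds to it. All 12 listed genes of these enzymes were tested. On differentiation 4 were called higher and 3 lower, on withdrawal 3 and 3, and against undifferentiated cells 2 and 2. Over all tested genes the shares called higher and lower were 31.7% and 27.9%, 23.2% and 23.2%, and 16.1% and 13.3%. The median log2 changes were 0.15, -0.07 and 0.12, beside 0.05, -0.01 and 0.02 over all tested genes. *Ispd*, which makes a sugar donor for this chain, measured 18.6 ± 6.23, 50.8 ± 6.94 and 31.4 ± 2.53 CPM (mean ± SD of 3 libraries) at the undifferentiated, differentiated and dedifferentiated stage, and it rose on differentiation (log2 change 1.39, edgeR adjusted p = 0.00017) and fell on withdrawal (log2 change -0.68, edgeR adjusted p = 0.0169). *Large*, the enzyme that extends the laminin-binding sugar chain, measured 137 ± 2.47, 74.1 ± 11.4 and 105 ± 1.24 CPM and fell on differentiation (log2 change -0.94, edgeR adjusted p = 2.56e-05) and rose on withdrawal (log2 change 0.52, edgeR adjusted p = 0.00267), as did *Tmem5* (log2 change -1.16, edgeR adjusted p = 4.76e-05 and 0.88, edgeR adjusted p = 0.000634) and *Pomgnt1* (log2 change -0.67, edgeR adjusted p = 0.000126 and 0.42, edgeR adjusted p = 0.00441).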
